A study of Homo sapiens with 12 samples.

Results

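The snoRNA host genes described here are 10 noncoding genes, GAS5, SNHG1, SNHG3, SNHG5, SNHG6, SNHG7, SNHG8, SNHG12, SNHG15 and SNHG16, of 57820 gene identifiers in the count files. They were chosen by name, with earlier results of these data known. Each symbol matched a single identifier (GAS5 ENSG00000234741, SNHG1 ENSG00000255717, SNHG3 ENSG00000242125, SNHG5 ENSG00000203875, SNHG6 ENSG00000245910, SNHG7 ENSG00000233016, SNHG8 ENSG00000269893, SNHG12 ENSG00000197989, SNHG15 ENSG00000232956 and SNHG16 ENSG00000163597). Polyadenylated RNA was sequenced from 2 human esophageal squamous carcinoma cell lines. The groups were Kyse410 shUHRF1, Kyse410 scramble, TE10 shUHRF1 and TE10 scramble, with 3 libraries in each and 12 in all. The shUHRF1 cells expressed a short hairpin RNA against UHRF1, a ubiquitin ligase that helps copy DNA methylation onto newly made strands, and the scramble cells expressed a control hairpin. All groups were stably infected. The labels name no number of hairpins or clones, and do not say whether replicates were separate cultures, so the spread behind each p-value may be a technical one.

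A snoRNA host gene is transcribed as a long RNA whose introns are cut into small nucleolar RNAs. Box C/D snoRNAs guide ribose methylation of ribosomal RNA, and box H/ACA snoRNAs guide pseudouridylation or, for a few, take part in ribosomal RNA cleavage. In the noncoding hosts the spliced exons carry no long conserved reading frame, and several are kept low by nonsense-mediated decay when they are translated. Many begin, like ribosomal protein mRNAs, with a run of pyrimidines at the first transcribed base (a TOP start), which ties their translation and stability to growth signals. The counts here are of polyadenylated host RNA, in which spliced and unspliced forms are not told apart, and not of the mature snoRNAs.

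The starts of the host genes are shown because the pyrimidine run is the sequence feature that defines TOP transcripts. Each RefSeq window (GRCh38.p14) runs from about 40 bases before the annotated start to about 20 from it, 5′ to 3′ on the gene's strand. Capitals mark the longest run of C and T, of at least 4 bases, among those that begin within 10 bases before or 15 bases after the start. It begins at or close to the start in SNHG5, SNHG12 and SNHG7. In SNHG8 it begins about 4 bases before the start, and in SNHG3, SNHG16 and SNHG1 about 3 to 5 bases after it. A run in capitals is therefore not by itself a TOP start. A longer run that begins farther upstream, as in SNHG7, is left in lower case.
SNHG1, chr11:62855866-62855925, minus strand: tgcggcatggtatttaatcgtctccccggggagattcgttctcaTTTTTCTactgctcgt
SNHG5, chr6:85678714-85678773, minus strand: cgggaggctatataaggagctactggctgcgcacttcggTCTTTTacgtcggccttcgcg
SNHG16, chr17:76557724-76557783, plus strand: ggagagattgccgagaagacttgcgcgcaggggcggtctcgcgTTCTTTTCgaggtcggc
SNHG3, chr1:28505903-28505962, plus strand: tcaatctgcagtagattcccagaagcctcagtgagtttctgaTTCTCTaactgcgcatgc
SNHG7, chr9:136728165-136728224, minus strand: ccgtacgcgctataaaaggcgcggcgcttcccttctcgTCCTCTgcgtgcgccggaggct
SNHG8, chr4:118278722-118278781, plus strand: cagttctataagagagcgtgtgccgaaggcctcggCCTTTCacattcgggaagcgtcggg
SNHG12, chr1:28581854-28581913, minus strand: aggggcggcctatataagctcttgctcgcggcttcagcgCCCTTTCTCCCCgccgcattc
For GAS5 the first 40 bases shared by 6 of 29 GENCODE release 29 transcripts are given instead, with those of 2 of 8 SNHG16 transcripts beside them, since both open with the same run.
GAS5: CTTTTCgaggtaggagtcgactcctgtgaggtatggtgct
SNHG16: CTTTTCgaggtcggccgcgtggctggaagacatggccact

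A pyrimidine run of at least 5 bases, beginning on the gene's strand within 10 bases before or 15 bases after the annotated start, was present in 7 of the 8 members with a RefSeq promoter entry and in 45.2% of all 35116 promoters. The RefSeq entry of GAS5 had a run of 4. Such a run need not begin at the first transcribed base, so these are not counts of TOP starts. The letters CTTTTCGAGGT open both GENCODE starts printed above and lie in the printed SNHG16 window, so their presence in SNHG16 was known beforehand. Searched on both strands in the 300 bases from 250 before to 50 after the start, they were found in 0.00854% of promoters. Among the members with a promoter entry, SNHG16 alone held them. The same search found TATATAA in SNHG5 and SNHG12 (2.57% of promoters) and TATAAA in SNHG1 and SNHG7 (11.5%). The E-box CACGTG, the letters bound by MYC with MAX, lay in the SNHG7 window and in 7.26% of promoters. TATATAA and TATAAA can lie close to each other but neither contains the other. The 300-base windows also differed in CpG dinucleotides, the bases on which DNA methylation is copied. SNHG7 had 43, SNHG5 41, SNHG12 35, SNHG1 30, SNHG8 29, SNHG16 23, SNHG3 13 and GAS5 5, against a median of 14 over all promoters. The GAS5 window lies at its RefSeq start, which is not the transcript start printed above for GAS5, so its 5 CpGs do not describe the sequence around that start. These letters describe the windows and show no binding or methylation.

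Reads assigned to genes numbered 7857662 to 12005229 per library, and a member had between 56 reads (SNHG8) and 3031 reads (GAS5) in a library. UHRF1 was at 42.1, 43.5 and 41.9 CPM in Kyse410 shUHRF1 and at 100.8, 101.4 and 95.1 CPM in Kyse410 scramble, which is 42.9% of the control. In TE10 it was at 82.1, 86.8 and 88.9 CPM with shUHRF1 and at 173.2, 178.7 and 183.8 CPM with scramble, 48.1% of the control. CPM relate the reads of a gene to a library total scaled by the TMM method. All 9 squamous epithelium markers had reads in each group, and 5 blood markers summed to at most 1.38 CPM (here without TMM scaling) in any library. The share of gene reads from mitochondrially encoded genes was 3.90% ± 0.106 in Kyse410 shUHRF1 and 2.38% ± 0.068 in Kyse410 scramble (SD, n = 3 each), and 5.23% ± 0.434 in TE10 shUHRF1 and 6.0% ± 0.05 in TE10 scramble.

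In Kyse410, 7 of the 10 host genes fell with shUHRF1 and none passed the test in the other direction. GAS5, SNHG5, SNHG12 and SNHG15 fell to 57.7 to 59.8% of their scramble level, and SNHG6, SNHG7 and SNHG8 fell to 75.7 to 85.1%. SNHG1, SNHG3 and SNHG16 did not pass. Calls were made where the adjusted p was under 0.05 in edgeR's quasi-likelihood test, with Benjamini-Hochberg adjustment over all 16060 genes tested. By the same rule 26.7% of all genes were called lower in this comparison and 49.3% were called in either direction. The median log2 fold change of the members was -0.39, against -0.03 over all genes. Since these are bulk samples, fewer cells of a type and less RNA per cell cannot be told apart.

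Among the box C/D hosts, GAS5, which carries many snoRNAs and was first found as a transcript that accumulates in growth-arrested cells, had 149.8, 140.3 and 147.3 CPM in Kyse410 shUHRF1, against 246.3, 244.1 and 240.1 CPM in Kyse410 scramble. The groups were far apart, with every knockdown library below every control library. The log2 fold change was -0.74 ± 0.0436 (SE; edgeR adjusted p = 1.51e-20). SNHG5, host of SNORD50A and SNORD50B, had 25.3, 21.0 and 19.8 CPM with shUHRF1 and 34.4, 37.6 and 40 CPM with scramble. Its libraries did not overlap either, although the first knockdown library stood above the other two. The log2 fold change was -0.75 ± 0.0925 (edgeR adjusted p = 1.02e-09).

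SNHG6, host of SNORD87, was at 43.9, 41.0 and 46.1 CPM in Kyse410 shUHRF1 and at 56.9, 59.3 and 56.6 CPM in Kyse410 scramble. This smaller difference, a log2 fold change of -0.40 ± 0.0679 (edgeR adjusted p = 1.76e-06), again left no overlap. SNHG1, the host of SNORD22 and SNORD25 to SNORD31, behaved otherwise: it had 144.3, 145.7 and 143.1 CPM with shUHRF1 and 144.9, 143.7 and 136.6 CPM with scramble. The libraries overlapped and the 95% interval of the log2 fold change ran from -0.07 to 0.12. SNHG16, host of SNORD1A, SNORD1B and SNORD1C, had 43.8, 42.0 and 44.3 CPM with shUHRF1 and 43.8, 47.1 and 48.0 CPM with scramble, with a 95% interval of -0.24 to 0.05.

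Among the box H/ACA hosts, SNHG15, host of SNORA9, had 83.9, 69.4 and 68.3 CPM in Kyse410 shUHRF1 and 128.3, 131.1 and 125.1 CPM in Kyse410 scramble. All knockdown libraries lay well below the controls, and the log2 fold change was -0.79 ± 0.0598 (edgeR adjusted p = 2.02e-16). SNHG8, host of SNORA24, had 15.2, 16.3 and 13.7 CPM with shUHRF1 and 20.3, 19.9 and 19.0 CPM with scramble. It was the member with the fewest reads in TE10, and its Kyse410 groups did not overlap (log2 fold change -0.38 ± 0.115, edgeR adjusted p = 0.00439).

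SNHG7, host of SNORA17A and SNORA17B, had 44.5, 45.1 and 36.8 CPM in Kyse410 shUHRF1 and 49.4, 51.1 and 48.9 CPM in Kyse410 scramble. The third knockdown library was the lowest of the 6, and the log2 fold change was -0.23 ± 0.0748 (edgeR adjusted p = 0.00803). Without that library it was -0.15 and no longer called (edgeR adjusted p = 0.118). SNHG3, host of SNORA73A and SNORA73B, which act in cleavage of the ribosomal RNA precursor, had 10.2, 9.83 and 11.2 CPM with shUHRF1 and 9.10, 8.57 and 10.4 CPM with scramble. Its groups overlapped, and the 95% interval ran from -0.11 to 0.40.

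SNHG12, which hosts snoRNAs of both classes (SNORA16A, SNORA44, SNORA61 and SNORD99), had 12.8, 12.5 and 14.5 CPM in Kyse410 shUHRF1, against 20.8, 23.0 and 23.2 CPM in Kyse410 scramble. The groups were clearly apart, with a log2 fold change of -0.76 ± 0.113 (edgeR adjusted p = 1.38e-07). Members of each snoRNA class were thus among those that fell and among those that did not pass, except that the mixed class held SNHG12 alone. The 7 members that fell were also the 7 whose libraries lay all below the controls, as did those of 30.0% of all genes, and no member's lay all above, as did those of 25.6%.

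**Figure D1:**
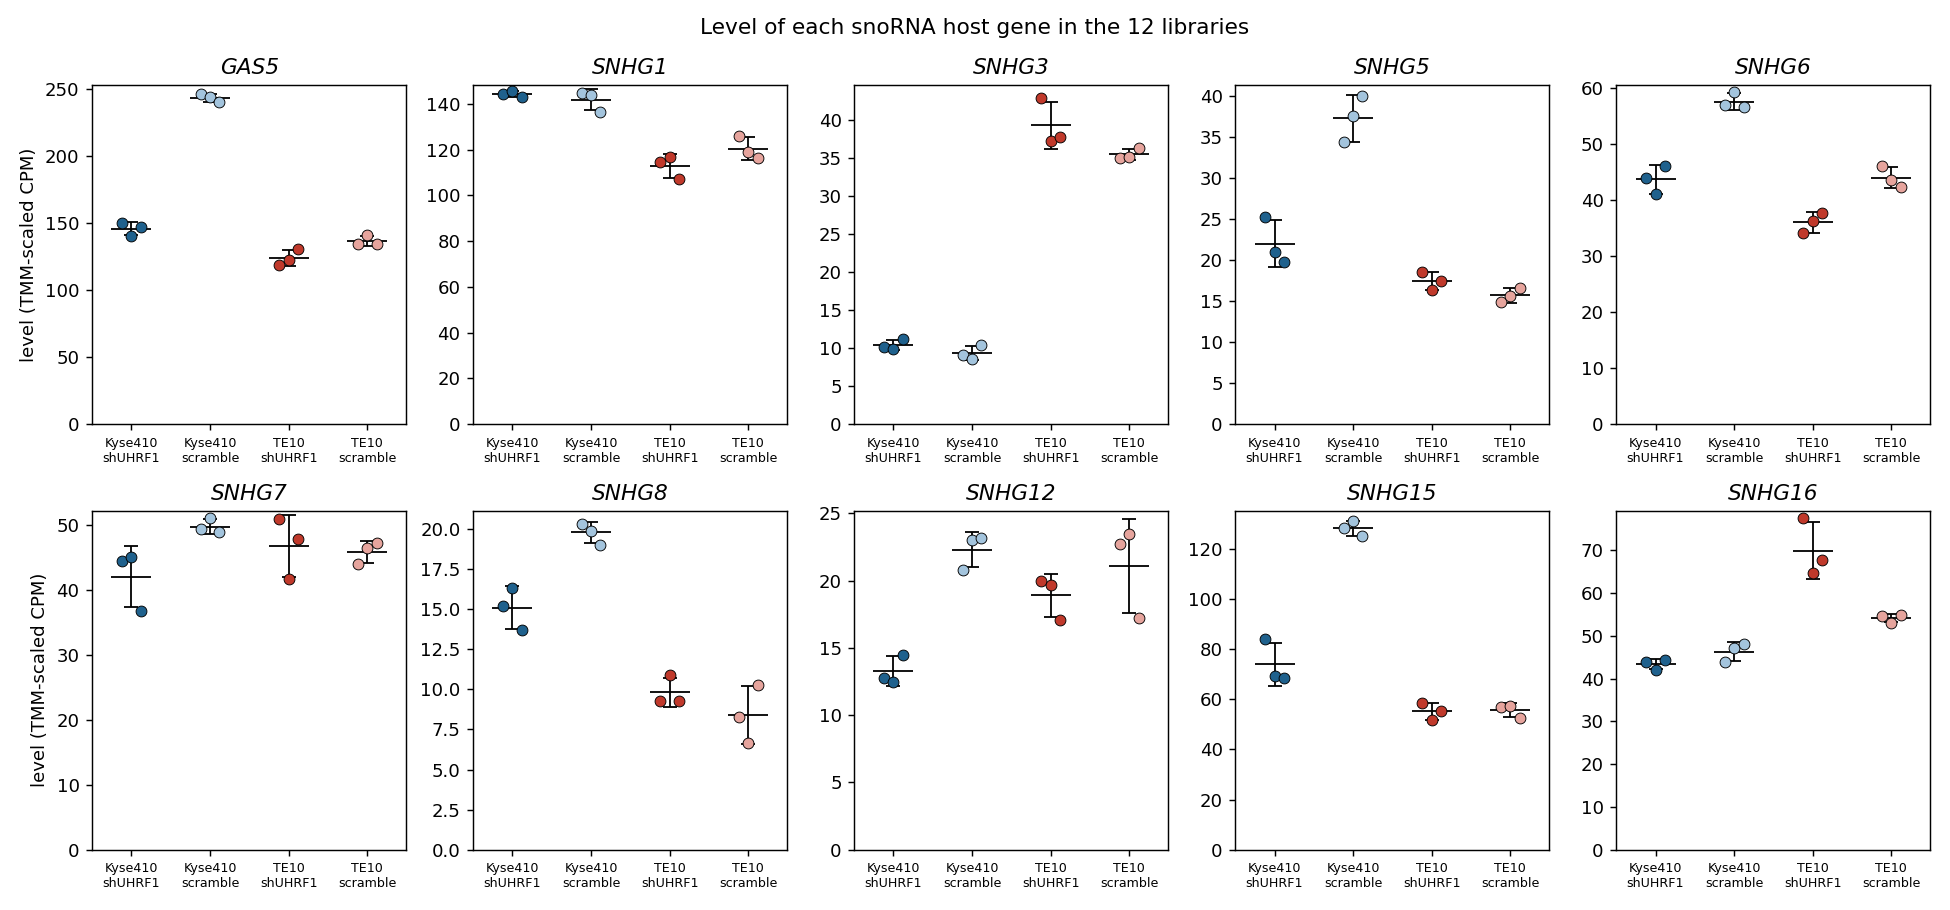
Level of each host gene in TMM-scaled CPM (vertical axes, from 0) in the 12 libraries, in the groups named on the horizontal axis; points are libraries, long bars the mean and error bars the SD of 3 libraries. GAS5, SNHG5 and SNHG15 stood highest in Kyse410 scramble, at means of 243.5, 37.3 and 128.2 CPM, while SNHG3 was at 10.4 CPM or below in the means of both Kyse410 groups.

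In TE10 the members moved little and in both directions. SNHG16 rose, GAS5 and SNHG6 fell, and 7 members did not pass the test. Of all genes, 38.8% were called in this comparison, 18.8% higher and 20.0% lower. The members' median log2 fold change was 0.01, against 0.00 over all genes.

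SNHG16 had 77.5, 64.7 and 67.7 CPM in TE10 shUHRF1 and 54.7, 53.0 and 54.9 CPM in TE10 scramble. Every knockdown library was above every control, and the first was the highest (log2 fold change 0.37 ± 0.0701, edgeR adjusted p = 2.36e-05). SNHG6 had 34.1, 36.3 and 37.7 CPM in TE10 shUHRF1 and 46.0, 43.5 and 42.4 CPM in TE10 scramble. Its groups did not overlap, and it fell by 0.29 ± 0.0783 on the log2 scale (edgeR adjusted p = 0.00274).

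GAS5 had 119.0, 122.3 and 130.3 CPM in TE10 shUHRF1 and 134.5, 141.2 and 134.5 CPM in TE10 scramble. The gap between the groups was narrow, and the log2 fold change of -0.14 ± 0.0492 (edgeR adjusted p = 0.0171) was the smallest of the called changes in the knockdown comparisons of the 10 genes. That call was lost without the first or the second shUHRF1 library (edgeR adjusted p = 0.242 and 0.0514) and without the second scramble library (0.0939). DESeq2 did not call it either (adjusted p = 0.0641).

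The TE10 members that did not pass had log2 fold changes from -0.15 (SNHG12) to 0.21 (SNHG8). SNHG15, among the members that fell most in Kyse410, had 58.4, 51.8 and 55.5 CPM in TE10 shUHRF1 and 56.9, 57.5 and 52.4 CPM in TE10 scramble, with a 95% interval of -0.16 to 0.14 around a log2 fold change of -0.01. SNHG5 had 18.6, 16.4 and 17.5 CPM with shUHRF1 and 14.9, 15.6 and 16.6 CPM with scramble, and its interval ran from -0.09 to 0.39. The libraries of each of these genes overlapped. SNHG3 had 42.9, 37.2 and 37.8 CPM with shUHRF1 and 35, 35.2 and 36.3 CPM with scramble, groups that did not overlap, like those of 46.9% of all genes, but that did not pass the test (edgeR adjusted p = 0.206). The intervals of SNHG1 (-0.20 to 0.01), SNHG7 (-0.14 to 0.19), SNHG8 (-0.10 to 0.53) and SNHG12 (-0.39 to 0.09) all held 0. Without overlap, 2 members lay higher with shUHRF1, SNHG3 and SNHG16 (23.1% of all genes), and 2 lower, GAS5 and SNHG6 (23.8%).

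The summed level of the 10 genes was 573.8, 543.1 and 545.0 CPM in Kyse410 shUHRF1, against 754.2, 765.5 and 748.0 CPM in Kyse410 scramble. In TE10 the sum was 545.0, 517.7 and 527.8 CPM with shUHRF1 and 543.1, 541.8 and 527.8 CPM with scramble. The knockdown sum thus lay below the control sum in Kyse410, whereas in TE10 the groups overlapped. GAS5, SNHG1 and SNHG15 make up most of these sums.

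The difference between the responses of the lines was tested directly, as Kyse410 minus TE10. It was negative and called for 6 members and positive and called for none, where 19.9% of all genes were called lower and 38.9% were called in all. The values were -0.91 ± 0.151 for SNHG5 (edgeR adjusted p = 2.12e-06), -0.78 ± 0.0951 for SNHG15 (1.51e-09) and -0.60 ± 0.0658 for GAS5 (1.11e-10). SNHG12 differed by -0.60 ± 0.164 (edgeR adjusted p = 0.00237) and SNHG8 by -0.60 ± 0.193 (0.0108). SNHG8 was no longer called without the second TE10 scramble library, the lowest of its 3 at 6.66 CPM (difference -0.46, edgeR adjusted p = 0.0682).

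SNHG16 also differed, by -0.46 ± 0.0996 (edgeR adjusted p = 0.000155), although it did not pass in Kyse410: here the called rise was in TE10. SNHG6, which fell in both lines, showed no called difference (-0.12, 95% interval -0.32 to 0.09). The differences of SNHG7 (-0.26, -0.48 to -0.04, edgeR adjusted p = 0.0571), SNHG1 (0.12, -0.02 to 0.26) and SNHG3 (0.00, -0.31 to 0.31) did not pass. The median difference over the members was -0.53, against -0.01 over all genes. UHRF1 itself had log2 fold changes of -1.22 ± 0.0573 in Kyse410 and -1.06 ± 0.0526 in TE10 and no called difference between them (-0.16, 95% interval -0.32 to -0.01, edgeR adjusted p = 0.093).

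**Figure D2:**
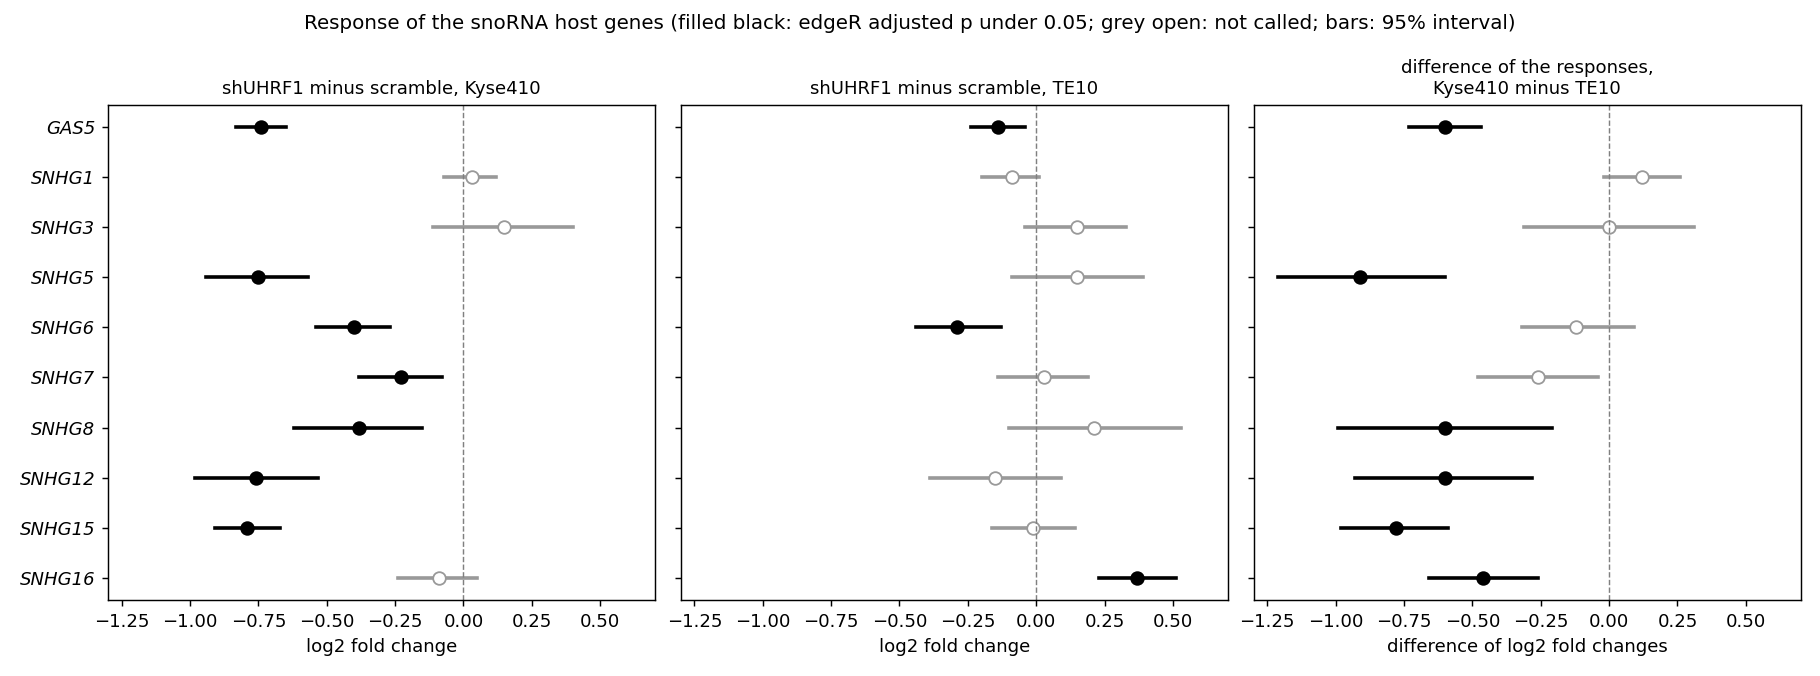
Log2 fold changes of the 10 host genes, shUHRF1 minus scramble, in Kyse410 (left) and TE10 (middle), and the difference of these (right, Kyse410 minus TE10); horizontal bars are 95% intervals and black filled points passed an adjusted p of 0.05. In Kyse410 7 members lie below 0 with intervals that exclude it, whereas in TE10 SNHG16 lies above 0 at 0.37 and only GAS5 and SNHG6 lie below with such intervals.

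Between the scramble controls, Kyse410 had more of 6 host genes than TE10 and less of 2. SNHG5, SNHG8 and SNHG15 were 2.31- to 2.37-fold higher in Kyse410, GAS5 was 1.78-fold higher and SNHG6 and SNHG1 were 1.31- and 1.18-fold higher. SNHG3 was at 26.4% of its TE10 level. The lines differed widely, with 73.7% of all genes called, 36.7% higher and 37.1% lower in Kyse410. The median over the members was a log2 fold change of 0.31, against 0.00 over all genes.

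SNHG3 had 9.10, 8.57 and 10.4 CPM in Kyse410 scramble and 35, 35.2 and 36.3 CPM in TE10 scramble. This was the widest gap among the members, with a log2 fold change of -1.92 ± 0.106 (edgeR adjusted p = 1.43e-22). RCC1, the neighbouring coding gene for a chromatin-bound exchange factor, shares part of its exons with SNHG3 on the same strand (5.9% of the exon bases of SNHG3 in GENCODE release 29). It was also lower in Kyse410 scramble, at 67.2 ± 1.40 CPM, than in TE10 scramble, at 147.0 ± 2.77 CPM (SD, n = 3 each; log2 fold change -1.13, edgeR adjusted p = 2.66e-25). In TE10 RCC1 rose with shUHRF1 by a log2 fold change of 0.34 ± 0.0498 (edgeR adjusted p = 1.15e-07), where SNHG3 had 0.15 and did not pass.

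SNHG15 had 128.3, 131.1 and 125.1 CPM in Kyse410 scramble, against 56.9, 57.5 and 52.4 CPM in TE10 scramble (log2 fold change 1.21 ± 0.0642, edgeR adjusted p = 3.19e-23). SNHG5 had 34.4, 37.6 and 40 CPM in Kyse410 scramble and 14.9, 15.6 and 16.6 CPM in TE10 scramble (1.24 ± 0.102, edgeR adjusted p = 6.52e-16). SNHG8 had 20.3, 19.9 and 19.0 CPM in Kyse410 scramble and 8.27, 6.66 and 10.3 CPM in TE10 scramble (1.22 ± 0.132, edgeR adjusted p = 7.55e-12). No library of either control group reached into the other for these genes. The Kyse410 libraries lay all above those of TE10 for 7 members (37.8% of all genes) and all below for 2 (38.3%).

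GAS5 differed by a log2 fold change of 0.83 ± 0.045 (edgeR adjusted p = 5.75e-23), SNHG6 by 0.39 ± 0.0702 (2.33e-06), SNHG1 by 0.24 ± 0.0488 (2.46e-05) and SNHG16 by -0.23 ± 0.0709 (0.00356). SNHG7 (0.11, 95% interval -0.04 to 0.27) and SNHG12 (0.08, -0.14 to 0.30) did not pass, so the fall of SNHG12 in Kyse410 went with control levels that were not told apart between the lines. The Kyse410 scramble libraries are shared by this comparison and by the Kyse410 knockdown, and their values for the members are therefore only set side by side. With shUHRF1 the Kyse410 levels of GAS5, SNHG5 and SNHG15 were at means of 145.8 ± 4.96, 22 ± 2.86 and 73.9 ± 8.72 CPM. In TE10 scramble the same genes were at 136.7 ± 3.88, 15.7 ± 0.888 and 55.6 ± 2.78 CPM.

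**Figure D3:**
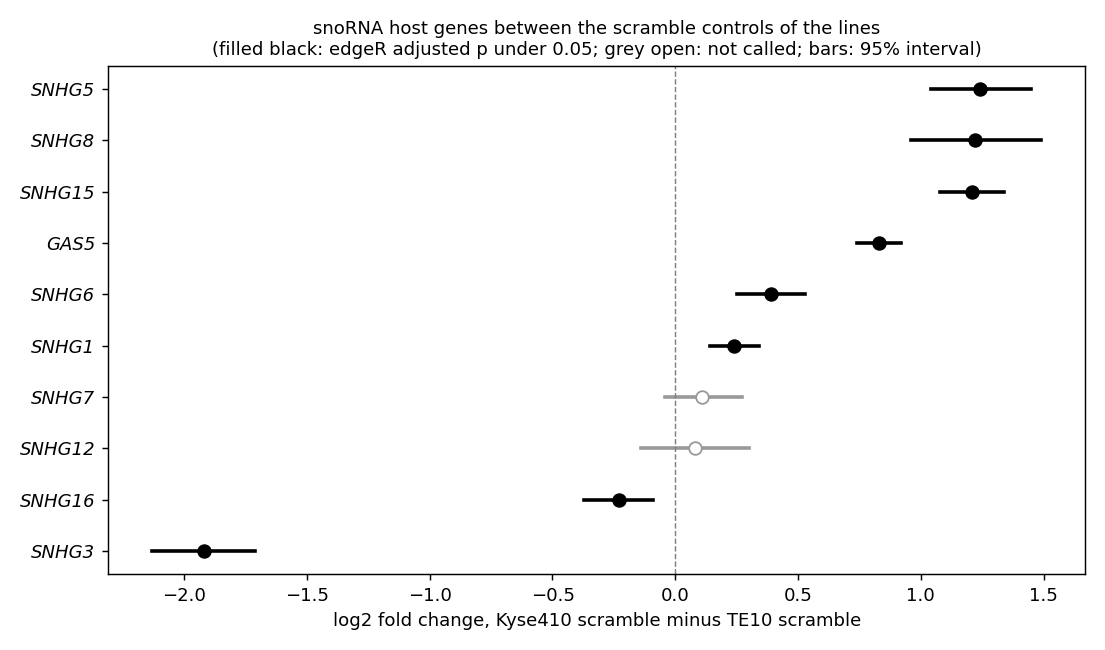
Log2 fold change of each host gene between the scramble controls, Kyse410 minus TE10 (horizontal axis), with 95% intervals; black filled points passed an adjusted p of 0.05. SNHG3 lies apart at -1.92, and SNHG5, SNHG8 and SNHG15 lie highest at 1.21 to 1.24.

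Levels of different genes were compared per kilobase of exon, with lengths from the basic transcripts of GENCODE release 29, an approximation since the files use another annotation. In Kyse410 scramble the order was GAS5 at 151 ± 1.95 CPM per kb, SNHG1 at 89.6 ± 2.83, SNHG6 at 59.2 ± 1.52, SNHG15 at 35.1 ± 0.825 and SNHG8 at 29.4 ± 0.963. It went on with SNHG5 at 17.6 ± 1.33, SNHG16 at 12.8 ± 0.617, SNHG7 at 11.5 ± 0.267, SNHG12 at 8.77 ± 0.520 and SNHG3 at 4.25 ± 0.434 CPM per kb. No neighbours in this order overlapped between libraries. In TE10 scramble GAS5 (84.7 ± 2.40), SNHG1 (76.1 ± 3.26) and SNHG6 (45.2 ± 1.92 CPM per kb) led again. Below SNHG3 (16.1 ± 0.322) SNHG15 (15.2 ± 0.762) and SNHG16 (15 ± 0.279 CPM per kb) overlapped, as did SNHG8 (12.5 ± 2.69) with its neighbours and SNHG12 (8.30 ± 1.37) with SNHG5 (7.40 ± 0.419). The order depended on the transcripts taken as length. With all annotated transcripts SNHG6 came before SNHG1 in both lines, and in Kyse410 scramble SNHG7 (11.5 CPM per kb) came before SNHG16 (8.64). In TE10 scramble SNHG3 was then at 8.69 ± 0.173 CPM per kb, below SNHG15 (15.2), SNHG7 (10.6) and SNHG16 (10.1). GAS5 stood first in both lines with either length.

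Some reads of the members may belong to overlapping genes, since the strand setting of the counting is not given in the sources used here. In GENCODE release 29 SNHG6 shares 29.3% of its exon bases with MCMDC2 and SNHG7 shares 25.2% with DIPK1B, both on the opposite strand. SNHG16 shares 30.6% with ENSG00000284526, which is not used here. MCMDC2, a relative of the replicative helicase subunits, was at 8.90 ± 1.95 CPM in Kyse410 shUHRF1 and 11.3 ± 1.84 CPM in Kyse410 scramble (log2 fold change -0.35, edgeR adjusted p = 0.0462). In TE10 it was at 8.38 ± 1.06 CPM with shUHRF1 and 10.9 ± 1.33 CPM with scramble (-0.37, edgeR adjusted p = 0.08). SNHG6 moved the same way in both lines, and how the shared reads were divided was not tested. GAS5-AS1, antisense to GAS5 with 42 shared bases, had 5.29, 4.67 and 5.53 CPM in Kyse410 shUHRF1 and 10.2, 11.5 and 10.8 CPM in Kyse410 scramble (-1.07 ± 0.163, edgeR adjusted p = 1.89e-07). Its responses differed between the lines by -1.34 (edgeR adjusted p = 0.000115).

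The snoRNAs themselves were hardly counted. Of 36 snoRNAs listed for the members' introns, 9 had an identifier in the files that matched, none passed the filter on low counts and 5 of them had no read. SNORA73B, in an intron of SNHG3, had the most, at 54 reads over the 12 libraries. Oligo(dT) selection keeps polyadenylated RNA, so the host levels above do not report on the mature snoRNAs.

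Other noncoding snoRNA hosts were measured from a list of 18, of which 14 were tested. In Kyse410 8 fell and none rose, with a median log2 fold change of -0.35. Of all genes, 26.7% were called lower and 22.6% higher in that comparison. ZFAS1, host of SNORD12 family members, fell to 104.4 ± 2.31 CPM with shUHRF1, against 180.0 ± 6.34 CPM with scramble (-0.79 ± 0.0561, edgeR adjusted p = 2.55e-17). SNHG17 (-0.71 ± 0.0559) and SNHG29 (-0.54 ± 0.0415) fell as well. In TE10 5 rose and 1 fell, with a median of 0.26, where 18.8% of all genes were called higher and 20.0% lower. DANCR had 35.7 ± 0.469 CPM in TE10 shUHRF1 and 18.5 ± 1.05 CPM in TE10 scramble (0.95 ± 0.106, edgeR adjusted p = 1.38e-10), and SNHG17 rose by 0.36 ± 0.0788. SNHG14 was the gene that fell there (-0.43 ± 0.106). SNHG9 also rose, but from 0.63 ± 0.281 CPM in TE10 scramble, a level of few reads. The remaining genes that rose there stood low as well, at 3.28 CPM or below in TE10 scramble. ZFAS1 (0.01) and SNHG29 (0.05), more abundant in TE10 than DANCR and SNHG17, did not pass there. The difference between lines was called lower for 9 of the 14 and higher for none, where 19.9% of all genes were called lower. For the members the same counts were 6 of 10 and none, and no test compared the lists.

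Genes that share features with the hosts were counted next, as descriptions beside the shares of all genes given above. Of 29 coding snoRNA hosts, 17 fell and 5 rose in Kyse410 (median -0.17), with EEF1B2, a translation elongation factor subunit, at -0.67 ± 0.048 and RPL7A at 0.47 ± 0.039. In TE10 4 fell and 10 rose. Of 48 ribosomal protein genes that host no snoRNA in the list, 31 fell and 5 rose in Kyse410 (median -0.20), with RPS23 at -0.46 ± 0.0356 and RPL14 at 0.51 ± 0.0381. In TE10 2 of them fell and 24 rose (median 0.08), with RPS19 at 0.44 ± 0.0469. The medians of both lists in Kyse410 lay closer to 0 than that of the members, a difference that was not tested.

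Of 22 nonsense-mediated decay factors, the proteins that remove translated RNAs with early stop codons, 14 fell and 1 rose in Kyse410 (median -0.27), and 3 fell and 9 rose in TE10 (median 0.05). SMG1, the kinase of UPF1, had 380.4 ± 15.6 CPM in Kyse410 shUHRF1 and 521.3 ± 11 CPM in Kyse410 scramble (-0.45 ± 0.0375, edgeR adjusted p = 4.43e-15), and it rose in TE10 (0.25 ± 0.041). Of 20 coding genes with transcripts known as targets of this decay, 18 fell and 2 rose in Kyse410 (median -0.46). In TE10 8 of these fell and 3 rose (median -0.06). The counts are per gene, so forms of its RNA that are targets and forms that are not were not told apart. ATF3, a stress-induced transcription factor, fell by 1.54 ± 0.0469 on the log2 scale in Kyse410, CCNL1, a cyclin of the splicing apparatus, fell by 0.69 ± 0.039, and ASNS, asparagine synthetase, rose by 0.64 ± 0.0526. Several of these targets, ATF3, DDIT3 and ASNS among them, also belong to the stress response driven by ATF4.

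**Figure D4:**
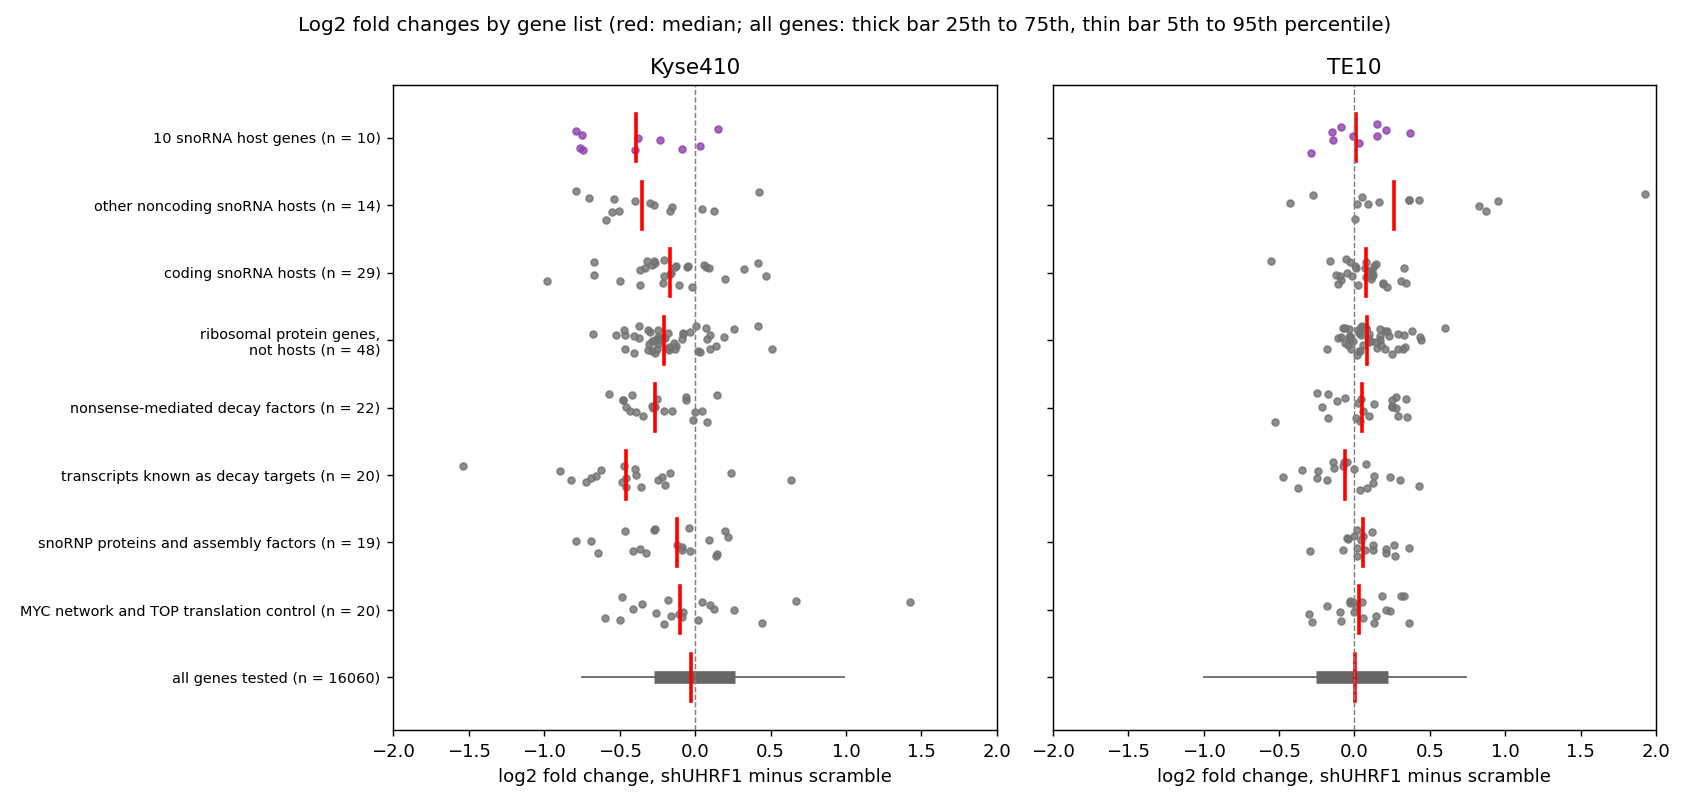
Log2 fold changes, shUHRF1 minus scramble, in Kyse410 (left) and TE10 (right) for the 10 host genes, 7 comparison lists and all 16060 genes tested; points are genes, red bars medians, and the bottom row gives percentiles of all genes. In Kyse410 the medians of the members (-0.39) and of all 7 lists lie left of that of all genes (-0.03). The list medians run from -0.46 (decay targets) and -0.35 (other noncoding hosts) to -0.10 (MYC network and TOP translation control).

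The members differed among themselves in their pattern over the 4 groups. Taking the 4 group means of log2 CPM of each gene, centred on their own mean, SNHG5 and SNHG15 were the closest pair, with a root mean square difference of 0.0614. SNHG3 was the farthest from each of the others, at 0.732 (SNHG16) to 1.42 (SNHG8). Among 11785 genes of at least 5 CPM on average, the nearest to GAS5 were ZNF292 (0.0483) and SLC25A43 (0.049). PIGB (0.00959) and TMEM50B (0.0158) were nearest to SNHG1, which varied little. The genes nearest to SNHG15 were ENSG00000273090 (0.0364) and MYL12-AS1 (0.0394), with Kyse410 log2 fold changes of -0.78 and -0.70 where SNHG15 had -0.79. These distances rest on 4 group means and describe the patterns only.

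Other measures moved with the groups in Kyse410. The summed level of 9 squamous markers, in CPM without TMM scaling, was 1660 to 1700 CPM in Kyse410 shUHRF1 and 1370 to 1390 CPM in Kyse410 scramble, and 922 to 957 CPM in TE10 shUHRF1 and 975 to 1000 CPM in TE10 scramble. KRT13 carried most of the Kyse410 sum, with 34673 reads over the 3 shUHRF1 libraries and 28956 over the 3 scramble libraries. The markers moved in different directions: in Kyse410 KRT13 rose by a log2 fold change of 0.28 and CDH1 by 0.80, whereas KRT17 fell by 0.98 and KRT14 fell by 1.79. In TE10 KRT13 rose by 0.78 and CDH1 by 1.20, whereas KRT5 fell by 3.07, KRT14 fell by 2.28 and KRT6A fell by 0.76 (all called by edgeR). The 6 fibroblast and endothelial markers in the files summed to 251 to 273 CPM in Kyse410 shUHRF1 and 136 to 148 CPM in Kyse410 scramble, carried by COL1A1 and CDH5. DCN and LUM, markers of fibroblasts, had no read in either Kyse410 group. The part of these markers in the fall of the host genes was not tested. With the mitochondrially encoded genes left out of the counts, the same numbers of members were called as with them, 7 lower in Kyse410, 6 lower in the difference between lines and 1 higher and 2 lower in TE10.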

How the data were processed

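The deposited files hold raw counts, whole numbers of reads per gene, 1 file per library, with HTSeq's counters at the end. Per the submitters' processing notes the authors used the build GRCh37.p13 and the tools HTSeq 0.9.1, HISAT2 2.1.0, bcl2fastq 2.19 and DESeq2. Neither the strand setting of the counting nor the annotation release is given in the sources used here. Per the labels' protocols, RNA was selected with oligo(dT) beads. Counters stayed out of library sizes: reads of no feature made up 42.88 to 44.66% of each library and ambiguous reads 1.38 to 1.98%. Symbols were matched for 52339 of 57820 identifiers, which held 99.03% of gene reads. The identifier ENSG00000034063 was taken as UHRF1 by hand. The reference annotation and the RefSeq sequences are of GRCh38, so the coordinates printed are of that build, and counts were joined to them by symbol or identifier only.

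From the counts, edgeR 4.0.16 (R 4.3.3) kept 16060 genes by filterByExpr, scaled libraries by TMM and fitted all 12 libraries in a single quasi-likelihood model with 8 residual degrees of freedom. Contrasts were shUHRF1 minus scramble within TE10 and within Kyse410, the second of these minus the first, and the Kyse410 scramble control minus that of TE10. Benjamini-Hochberg adjustment ran over all genes, with calls at an adjusted p under 0.05. All 10 members passed the filter. Errors of fold changes are standard errors, and 95% intervals use the model's spread. The statistic was tested on simulated data. Replicates of a group differed by 1.57 to 2.92 in chi-square over its degrees of freedom (genes of 20 reads or more), so none was a repeat deposit. Alternatives were RLE and upper-quartile scaling, other filters, mitochondrial genes left out, compared groups only, DESeq2 1.42.0, limma-voom (limma 3.58.1), a replicate block, and each library left out in turn. Plots were drawn with matplotlib 3.10.9, and tables made with SciPy 1.17.1, numpy 2.4.6 and pandas 2.3.3 in Python 3.11.15.

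The members and gene lists were chosen with earlier results of these data known. Genes outside the members were named by a rule: UHRF1, up to 3 genes each way per list with the smallest adjusted p, from which examples are given, and the 2 nearest genes in pattern for the 3 most abundant members. RCC1, MCMDC2 and GAS5-AS1 were named for their overlap with members, and the lists' counts are descriptions without a test.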

Additional observations from a re-analysis of the deposited data

Results flagged for a closer look

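For 6 of the 10 host genes the response to shUHRF1 differed between the lines by a direct test. The difference, Kyse410 minus TE10 on the log2 scale, was -0.91 for SNHG5, -0.78 for SNHG15, -0.60 for GAS5, -0.60 for SNHG8, -0.60 for SNHG12 and -0.46 for SNHG16. By the same rule 38.9% of all genes differed between the lines. For SNHG5, SNHG8, SNHG12 and SNHG15 the change was called in Kyse410 and not in TE10, GAS5 fell in both lines and more in Kyse410, and SNHG16 rose in TE10 and did not pass in Kyse410.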

How the results depend on the processing

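Under 21 alternative settings the number of members called stayed at 6 to 7 in Kyse410, 2 to 3 in TE10, 5 to 7 for the line difference and 8 to 9 between scramble controls. Median log2 fold changes of the members ranged from -0.41 to -0.34, from -0.01 to 0.07, from -0.54 to -0.45 and from 0.28 to 0.37 in the same comparisons. GAS5 in TE10 was called in 17 of 21 alternatives (-0.18 to -0.08, adjusted p 0.00782 to 0.242), SNHG7 in Kyse410 in 20 of 21 (adjusted p 0.00466 to 0.118) and SNHG8 in the line difference in 19 of 20 (0.00201 to 0.0682). For GAS5 and SNHG7 these counts include runs without a library of the other line, which leave the compared libraries unchanged. The GAS5 call was lost with DESeq2 and otherwise only in runs without a TE10 library. The line difference of SNHG7, which did not pass in the report, was called in 5 of 20 (adjusted p 0.0144 to 0.22): with RLE scaling (-0.27), with the replicate block (-0.26) and without TE10 shUHRF1 library 2 (-0.34), Kyse410 shUHRF1 library 1 (-0.29) or library 2 (-0.29). Upper-quartile scaling called the line difference of SNHG1 (0.17) and SNHG7 between controls (0.17). Every other member call held in every alternative run. The closest to the threshold was SNHG6 in TE10, with log2 fold changes of -0.32 to -0.21 and a highest adjusted p of 0.0499 over the alternatives.

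Values that changed sign were all close to 0 and never called. SNHG15 in TE10 became 0.01 with RLE scaling and with DESeq2, and ranged from -0.05 to 0.04 without single libraries. SNHG7 in TE10 ranged from -0.01 to 0.10 without single libraries, at -0.01 without TE10 shUHRF1 library 1 and -0.00 without TE10 scramble library 1. The line difference of SNHG3 became 0.05 with upper-quartile scaling, 0.01 without mitochondrial genes, 0.02 with every gene of at least 1 read, 0.00 with limma-voom and -0.05 to 0.08 without single libraries. SNHG12 between controls became -0.06 without TE10 scramble library 3. The cause was not tested.

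Same-numbered libraries did not deviate together (correlations of -0.005 to 0.037, below the 0.1 set), so the numbers were not taken as pairs. The replicate block gave 7 members lower in Kyse410, 3 called in TE10, 7 in the line difference and 8 between controls, with SNHG3 at 0.01 in the line difference and SNHG12 at -0.09 between controls. By correlation 2 of 3 TE10 and 1 of 3 Kyse410 shUHRF1 libraries were closest to the control of their own number. The standard errors were widest for SNHG3 (0.125) and SNHG8 (0.115) in Kyse410 and for SNHG8 (0.155) and SNHG5 (0.119) in TE10.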

Other observations

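Of 19 snoRNP proteins and assembly factors tested, 10 fell and 3 rose in Kyse410 (median log2 fold change -0.12), and 1 fell and 6 rose in TE10 (median 0.06), with 12 not called there. Of all genes, 26.7% were called lower and 22.6% higher in Kyse410, and 20.0% lower and 18.8% higher in TE10. NOLC1, a nucleolar chaperone that binds both snoRNP classes, had 212.3 ± 3.51 CPM in Kyse410 shUHRF1 and 293.8 ± 3.38 CPM in Kyse410 scramble (SD, n = 3 each; edgeR adjusted p = 6.3e-15). GAR1, a core protein of the H/ACA particle, fell in both lines, by 0.79 ± 0.11 in Kyse410 and 0.30 ± 0.102 in TE10 on the log2 scale. RUVBL2, an ATPase of the assembly complex, rose in both, by 0.22 ± 0.0515 and 0.36 ± 0.0479. 

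Among 20 tested genes of the MYC network and of TOP translation control, 9 fell and 5 rose in Kyse410 (median -0.10), and 4 fell and 7 rose in TE10 (median 0.03). Read against the same shares of all genes, the 5 rises in Kyse410 and the 4 falls in TE10 are at the background. MYC had 1043.4 ± 41.6 CPM in Kyse410 shUHRF1 and 1474.7 ± 30.0 CPM in Kyse410 scramble (log2 fold change -0.50 ± 0.0333, edgeR adjusted p = 2.02e-18), and it fell by 0.09 ± 0.0354 in TE10 (edgeR adjusted p = 0.033). EIF4EBP2, a repressor of cap-dependent translation, rose in both lines, by 0.67 ± 0.0526 in Kyse410 and 0.33 ± 0.052 in TE10. LARP1, which binds TOP starts, rose by 0.21 ± 0.0377 in TE10 and did not pass in Kyse410 (-0.09, edgeR adjusted p = 0.0711).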
